A study of Mus musculus with 6 samples.

Results

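The enzymes and transporters of glycolysis, lactate export and the pentose phosphate pathway were followed as a group of 35 genes in mouse N2a cells after knockdown of *Npm1*. The genes were found by their symbol in the deposited tables, and all 35 were listed among the 26656 gene IDs there. They were selected on their role in these pathways and on the rlog differences between NPM1 KD and CTR in these same libraries, so their differences between conditions are given as a description. The calls that a fit across all genes made among them are counted, but are not a test of the group and support nothing about it. Of the 35 genes, 28 had a mean expression value high enough to enter the fit across genes, which covered 5752 genes in all. The other 7 were *Pfkfb3*, *Pfkfb4*, *Ldhb*, *Pdk1*, *G6pdx*, *Rpia* and *Gpd1l*.

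Glycolysis splits glucose into pyruvate in a chain of cytosolic reactions and yields ATP and NADH. Cells that send much of their glucose down this route turn pyruvate into lactate, which regenerates NAD+, and export it through monocarboxylate transporters, while pyruvate dehydrogenase feeds the rest into mitochondria. The pentose phosphate pathway branches off at glucose 6-phosphate and supplies NADPH and ribose. Several steps are encoded by more than one gene, and such isoforms differ between tissues, as with aldolase A in muscle and most other cells and aldolase C in brain.

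N2a is an established mouse neuroblastoma line with a wild-type genotype. The control cells (CTR, 3 libraries) were transfected with a plasmid carrying a non-target shRNA (pLKO.1-shCTR) and the knockdown cells (NPM1 KD, 3 libraries) with a plasmid carrying 1 shRNA against *Npm1* (pLKO.1-shNpm1, TRCN0000115430). RNA was taken after 72 h, on day 3 in vitro, and 9.3 µg/ml puromycin was present from 24 h on in the knockdown experiments. Whether the control cells were selected in the same way is not said outright. The cDNA was amplified by PCR and sequenced as long molecules on a nanopore device. The knockdown rests on a single shRNA in a single cell line, and the descriptions give 3 biological replicates for the study but 2 in the treatment protocol, so the spread between libraries may in part be technical.

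Expression is given as the authors' regularized log value (rlog), which is on the log2 scale, corrected for the size of each library and pulled in towards the gene's mean where reads are few. All values of 1 or more in size are whole numbers, so the mean of 3 libraries moves in steps of 0.33 and a smaller change within a library cannot be seen. *Npm1* itself stood at 10 in each CTR library and at 8 in each NPM1 KD library. Libraries CTR 1 to 3 had relative depths of 1.24, 1.30 and 1.11, and libraries NPM1 KD 1 to 3 had relative depths of 0.784, 0.833 and 0.961. All 3 knockdown libraries were thus shallower than all 3 controls. The rlog values are corrected for this, with library means of 5.27 to 5.31 over the genes tested, and the part of depth in the differences below was not tested. Of 13 sympathoadrenal and neuronal markers, *Hand2* and *Gata2* were detected with mean values of 4.67 to 8 in both conditions, while *Th* and *Dbh* did not exceed 2. Of 13 markers of fibroblasts, glia, leukocytes and endothelium, 8 were at 0 throughout and the highest value was 2, with a summed log2 level of 3.05 to 3.38 in CTR and 3.03 to 3.08 in NPM1 KD. The summed level of the 13 neuroblastoma markers on the log2 scale was 10.57 to 10.69 in CTR and 9.78 to 9.91 in NPM1 KD. Of the 9 tested, *Chga*, *Chgb*, *Stmn2*, *Ret*, *Isl1* and *Tubb3* were separated with lower values in NPM1 KD, and limma called the secretory granule genes *Chga* and *Chgb*. These lower values went along with the lower values of glycolytic genes, and the part of either in the other was not tested. In RNA from whole cultures, fewer cells that express a gene and less of its RNA per cell cannot be told apart.

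Along the chain from glucose uptake to lactate, most genes had lower values upon NPM1 KD, whereas the tested genes of pyruvate dehydrogenase had equal or higher means and those of the pentose phosphate pathway lay on both sides of 0. Among the 28 tested members the mean of the NPM1 KD libraries was below that of the CTR libraries in 20, beside 27.4% of all genes tested. It was above in 3, beside 24.6% of all genes tested, and equal in 5. The median difference was −0.67 on the log2 scale and the mean −0.61, beside a median of 0 and a mean of −0.02 over all 5752 genes tested. A difference of −1 or lower was found in 10 members, and 3.79% of all genes tested had one. A difference of 1 or higher was found in 0 tested members, beside 2.29% of all genes tested. In 5 members, *Slc2a3*, *Pfkl*, *Aldoc*, *Pgk1* and *Ldha*, all NPM1 KD values lay below all CTR values, as in 3.41% of all genes tested. The opposite separation was found in 0 tested members and in 2.19% of all genes tested. The fit across genes with limma called 4 members lower at an adjusted p below 0.05, *Slc2a3*, *Pfkl*, *Aldoc* and *Ldha*, beside 0.417% of all genes tested. It called 0 members higher, beside 0.0695% of all genes. At an unadjusted p below 0.05, 16 members were lower, beside 8.07% of all genes tested, and 1 was higher, beside 6.07%. With no lower limit on the variance of a gene, limma called 2 members lower, *Aldoc* and *Pgk1*, beside 3.09% of all genes tested, and 0 higher, beside 2.14%. Because the genes were chosen for this contrast, nothing is read from these counts against the background.

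**Figure D1:**
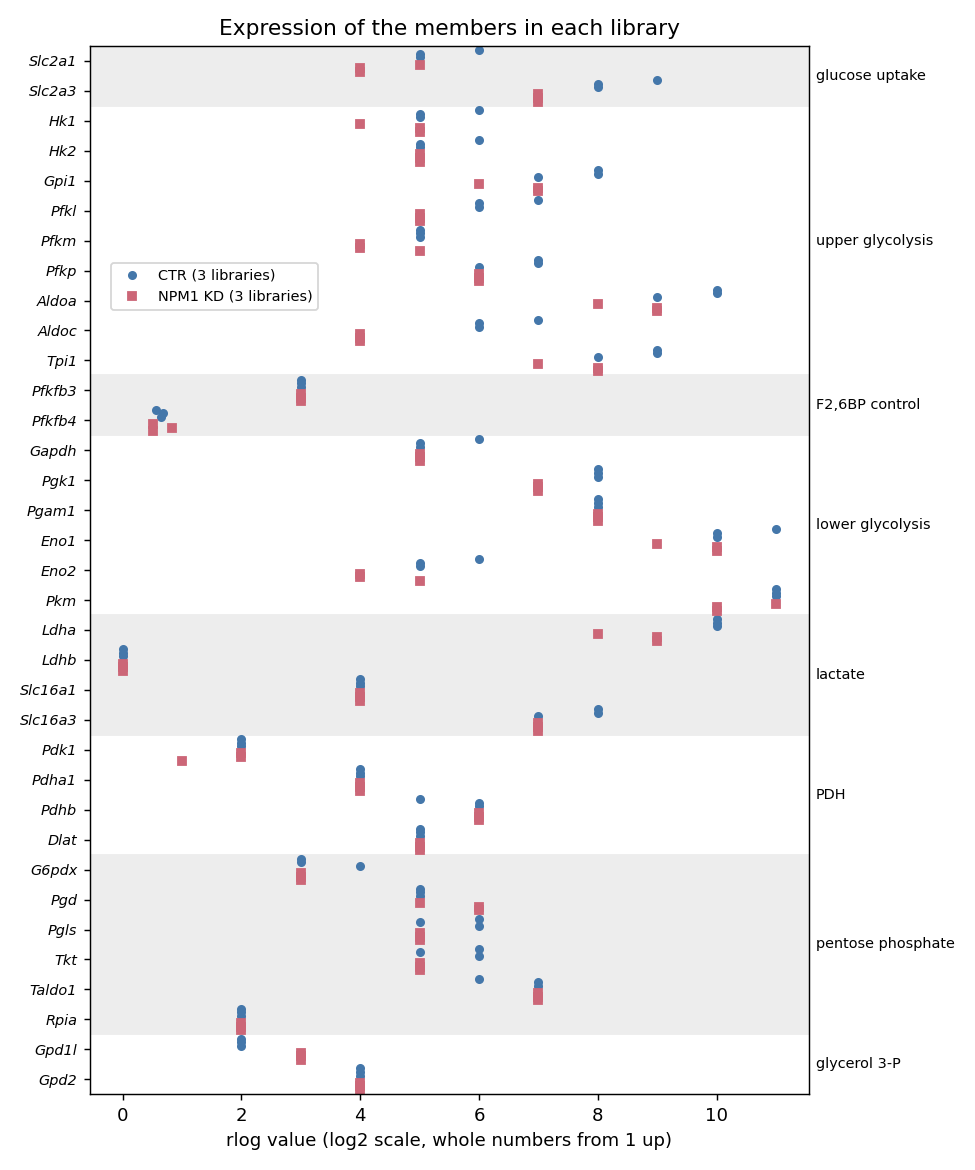
Each row is 1 of the 35 genes in pathway order, and the horizontal axis gives its rlog value (log2 scale) in the 3 CTR libraries (circles) and the 3 NPM1 KD libraries (squares), offset vertically so that equal values stay visible. The squares lie to the left of the circles without overlap for *Slc2a3*, *Pfkl*, *Aldoc*, *Pgk1* and *Ldha*, and to the right for *Gpd1l* alone.

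The stretches before the transcription start were examined for the letters ACGTG and GCGTG, the cores of the hypoxia response element, a motif known from glycolytic genes. In the RefSeq table of build GRCm38.p6, 34 of the 35 members were matched, with 49 starts, and *Slc2a3* had no entry. The 3 tested members with an entry and the lowest differences, *Aldoc*, *Pfkl* and *Ldha*, are shown to let the letters be seen beside their values. Where a gene had more than 1 start, the first by position was used. Each stretch is printed 5′ to 3′ in the direction of the gene, with matches to either motif on either strand in capitals, and without bases that GENCODE M21 places in an exon. The stretch of *Ldha*, on the plus strand at chr7:46845554-46845803, lies in an intron of a longer *Ldha* transcript and holds 3 sites, 2 of them CACGTG. That of *Pfkl*, on the minus strand at chr10:78009808-78010004, lies in an intron of a longer *Pfkl* transcript and holds 1 site. That of *Aldoc*, on the plus strand at chr11:78322823-78322967, lies outside genes, ends 105 bases before the start used here and holds 0 sites, while 1 site lies in the 105 bases that were left out. The 250 bases before another start held 1 site and 0 CACGTG for *Ldha*, and 1 site for *Aldoc*.
Ldha: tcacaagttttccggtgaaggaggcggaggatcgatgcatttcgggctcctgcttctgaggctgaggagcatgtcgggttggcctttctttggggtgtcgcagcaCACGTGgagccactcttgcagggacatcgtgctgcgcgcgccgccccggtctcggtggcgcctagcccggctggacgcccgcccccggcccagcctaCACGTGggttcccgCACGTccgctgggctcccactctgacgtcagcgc
Pfkl: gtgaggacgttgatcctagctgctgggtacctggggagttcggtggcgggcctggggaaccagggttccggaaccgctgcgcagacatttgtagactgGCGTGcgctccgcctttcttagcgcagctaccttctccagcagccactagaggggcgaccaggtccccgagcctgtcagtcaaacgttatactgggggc
Aldoc: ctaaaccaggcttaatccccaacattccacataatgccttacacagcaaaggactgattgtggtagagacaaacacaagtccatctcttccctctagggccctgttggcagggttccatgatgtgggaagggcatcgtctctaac

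Among the 250 bases before each start, ACGTG or GCGTG on either strand was found in 38 of the 49 member stretches (77.6%), beside 38.6% of all 32851 stretches of the same length. Counted by gene, 30 of the 34 matched members had it, and no share by gene was worked out over all genes. GCGTG was found in 57.1% of the member stretches and in 28.2% of all, and ACGTG in 34.7% and 16.6%. CACGTG, the E-box, contains ACGTG and was found in 10.2% and 6.02%. TGACTCA, a motif searched for contrast, was found in 2.04% and 4.46%. Both core motifs contain the letters CG and TGACTCA does not. The 32851 stretches were not matched to the members in base composition or expression, and the part of either in these shares was not tested. Of the tested members, 6 of 9 with a difference of −1 or lower had either core motif, and 17 of 18 of the others had it. A match is a run of letters and not a site of binding.

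Glucose enters through facilitative transporters of the SLC2 family. *Slc2a3* (ENSMUSG00000003153), the high-affinity transporter GLUT3 of neurons, had rlog values of 9, 8 and 8 in CTR and of 7, 7 and 7 in NPM1 KD, with 248 as the authors' mean normalized count. The groups did not overlap, and the means were 8.33 ± 0.58 and 7 ± 0 (SD, n = 3), a difference of −1.33 (SE 0.35). The SE given here and below comes from limma and followed the mean level of a gene, not its own spread between libraries. *Hk1*, with an SD of 0.58 in each condition, and *Dlat*, with 1 value throughout, both had an SE of 0.33. At a given level, a call is thus a limit on the size of the difference. *Slc2a1* (ENSMUSG00000028645), the widely expressed transporter GLUT1, had values of 6, 5 and 5 in CTR and of 5, 4 and 4 in NPM1 KD, a difference of −1 (SE 0.33), with one value shared between the groups. Both transporters thus had lower means upon NPM1 KD, and their gap changed by only 0.33, which is 1 step of the rounding.

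In the upper part of glycolysis, from hexokinase to triosephosphate isomerase, all 9 genes were tested and all 9 had lower means in NPM1 KD, by −0.33 to −2.33 with a median of −1. *Aldoc* (ENSMUSG00000017390), aldolase C, which cleaves fructose 1,6-bisphosphate, showed the largest difference of all members. Its values were 7, 6 and 6 in CTR against 4, 4 and 4 in NPM1 KD, with a mean normalized count of 69.2. The highest knockdown library was 2 units below the lowest control, and the means of 6.33 ± 0.58 and 4 ± 0 (SD, n = 3) differed by −2.33 (SE 0.33). *Aldoa* (ENSMUSG00000030695), the more widely expressed aldolase A, had values of 10, 10 and 9 in CTR and of 8, 9 and 9 in NPM1 KD, a difference of −1 (SE 0.33) with an overlap at 9.

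*Pfkl* (ENSMUSG00000020277) encodes the liver-type subunit of phosphofructokinase, the enzyme of the main committed step. It had values of 7, 6 and 6 in CTR and of 5, 5 and 5 in NPM1 KD, a difference of −1.33 (SE 0.34) without overlap. The muscle-type subunit *Pfkm* had values of 5 in all CTR libraries and of 4, 4 and 5 upon NPM1 KD, and the platelet-type subunit *Pfkp* values of 7, 7 and 6 against 6, 6 and 6. For both the difference was −0.67 and the groups shared a value, so that among the 3 subunits only the liver type was separated.

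The remaining upper enzymes showed the same direction with overlap between the groups. *Gpi1*, which converts glucose 6-phosphate into fructose 6-phosphate, had values of 8, 8 and 7 in CTR and of 6, 7 and 7 in NPM1 KD, and *Tpi1*, which interconverts the triose phosphates, had 9, 9 and 8 against 7, 8 and 8. Both differed by −1 (SE 0.35 and 0.34). The hexokinases, which phosphorylate glucose, differed less. *Hk1* was at 6, 5 and 5 in CTR and at 4, 5 and 5 in NPM1 KD, a difference of −0.67, and *Hk2* was at 6, 5 and 5 against 5, 5 and 5, a difference of −0.33 that came from CTR 1 alone. *Pfkfb3* and *Pfkfb4*, which make and break down the phosphofructokinase activator fructose 2,6-bisphosphate, were below the minimum for the fit. *Pfkfb3* was at 3 in all 6 libraries, and *Pfkfb4* had values between 0.51 and 0.83 that overlapped between the groups.

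**Figure D2:**
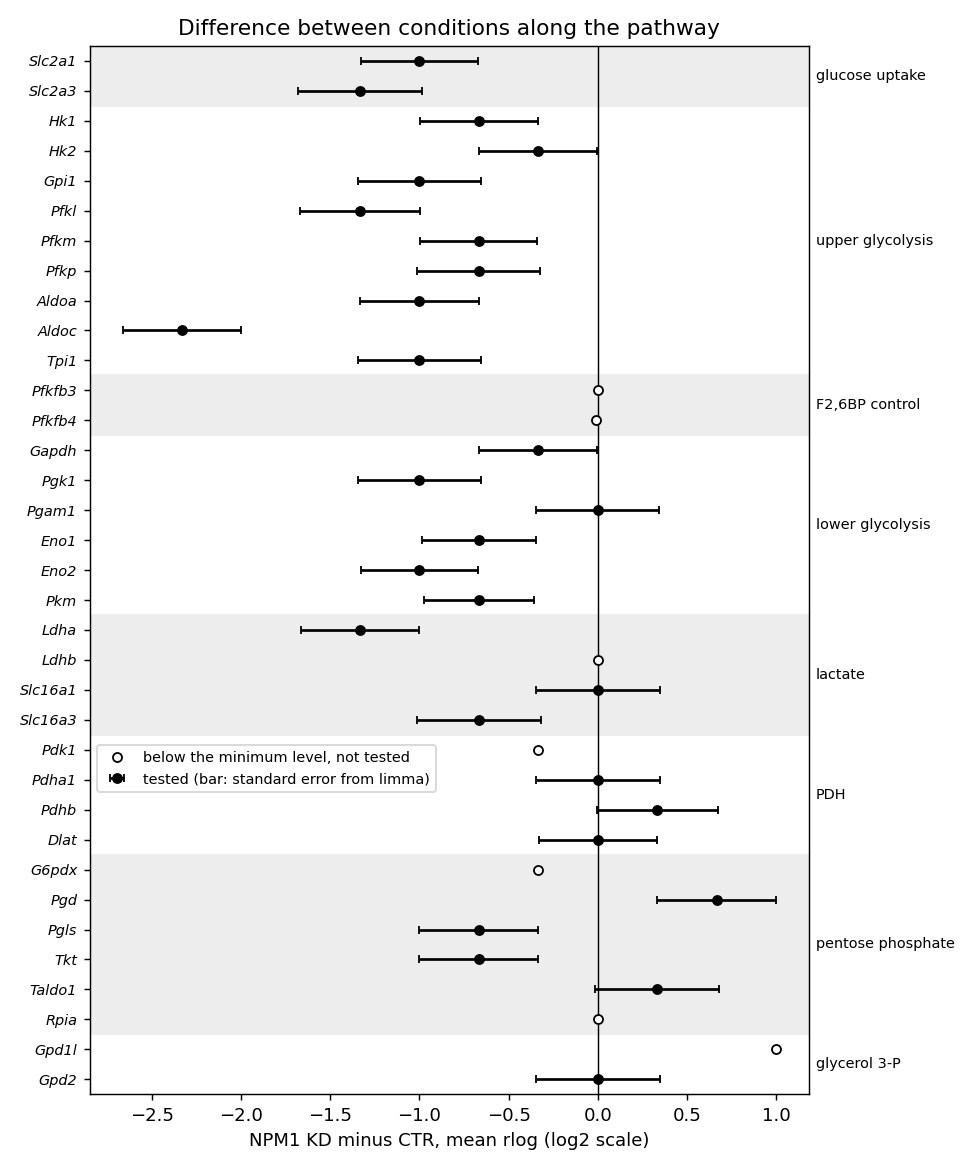
Each row is 1 of the 35 genes in pathway order, and the horizontal axis gives the mean rlog of the 3 NPM1 KD libraries minus that of the 3 CTR libraries on the log2 scale. Filled points with bars are the 28 genes in the fit with their standard error from limma, which followed the mean level and not the gene's own spread. Open points are the 7 below the minimum level. The points of upper glycolysis all lie left of 0, from −2.33 for *Aldoc* to −0.33 for *Hk2*, while those of the pentose phosphate pathway run from −0.67 to 0.67.

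In the lower part of glycolysis, from glyceraldehyde 3-phosphate to pyruvate, 5 of 6 genes had lower means and 1 was equal, with a median of −0.67. *Pgk1* (ENSMUSG00000062070), phosphoglycerate kinase, which makes the first ATP of the pathway, stood at 8 in each CTR library and at 7 in each NPM1 KD library. The groups were separated by exactly 1 unit, a difference of −1 (SE 0.35) that was not called in the fit. *Pgam1*, the phosphoglycerate mutase of the next step, was at 8 in all 6 libraries, so that any difference remained within the rounding.

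*Eno2*, the neuronal enolase, had values of 6, 5 and 5 in CTR and of 4, 4 and 5 in NPM1 KD, a difference of −1 (SE 0.33) with an overlap at 5. *Eno1*, the general enolase, was at 11, 10 and 10 in CTR and at 9, 10 and 10 in NPM1 KD, a difference of −0.67. *Pkm*, the pyruvate kinase that ends glycolysis, was at 11 in all CTR libraries and at 11, 10 and 10 in NPM1 KD, also a difference of −0.67. The difference of *Eno1* thus came from a high CTR 1 and a low NPM1 KD 1, whereas that of *Pkm* came from NPM1 KD 2 and 3.

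*Gapdh*, glyceraldehyde 3-phosphate dehydrogenase, is a frequent reference gene and served as the RT-qPCR reference in the study. Its values were 6, 5 and 5 in CTR against 5, 5 and 5 in NPM1 KD, a difference of −0.33 (SE 0.33) that is 0 without CTR 1. Its mean normalized count of 33.5 holds only part of the reads that its sequence could receive. In the GENCODE M21 transcripts, 76 other genes match *Gapdh* at 95% identity or more over at least 300 bases, and 42 of them, all annotated as pseudogenes, are listed in the tables. The *Gapdh* entry holds 0.308% of the summed mean normalized count of 10876 over *Gapdh* and the 41 of these with reads, a sum that is 1.29% of all normalized counts. Reads of *Gapdh* mRNA and of these pseudogenes cannot be told apart from the tables, and the value of *Gapdh* is therefore uncertain.

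The pseudogene entries with the most reads had lower means in NPM1 KD as well. *Gm13394*, which is 99.9% identical to *Gapdh* over 1000 aligned bases, had values of 12, 11 and 11 in CTR and of 10, 11 and 11 in NPM1 KD. *Gm12671*, with 100% identity over 1002 bases, was at 11 in each CTR library and at 10 in each NPM1 KD library, and *Gm12537* was at 10 in each CTR library and at 9 in each NPM1 KD library. All 21 of the pseudogenes that entered the fit had a lower mean in NPM1 KD, by −0.33 to −1 with a median of −0.67. In 7 of them the groups were separated, beside 3.41% of all genes tested. Limma called 0 lower at an adjusted p below 0.05, beside 0.417% of all genes tested. At an unadjusted p below 0.05, limma had 13 lower, beside 8.07%. The 21 pseudogenes are not separate measurements, since a read can be placed on any of them, so nothing is read from these counts. Summed over *Gapdh* and the 41 pseudogenes on the linear scale, the log2 level was 14.13, 13.57 and 13.54 in CTR against 12.59, 13.14 and 13.13 in NPM1 KD. Every knockdown library was below every control library in this sum, with means of 13.75 ± 0.33 and 12.96 ± 0.31 (SD, n = 3) and a difference of −0.79. The sum is built from values rounded to whole numbers and carries their rounding, so its decimals are not a finer measure.

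**Figure D3:**
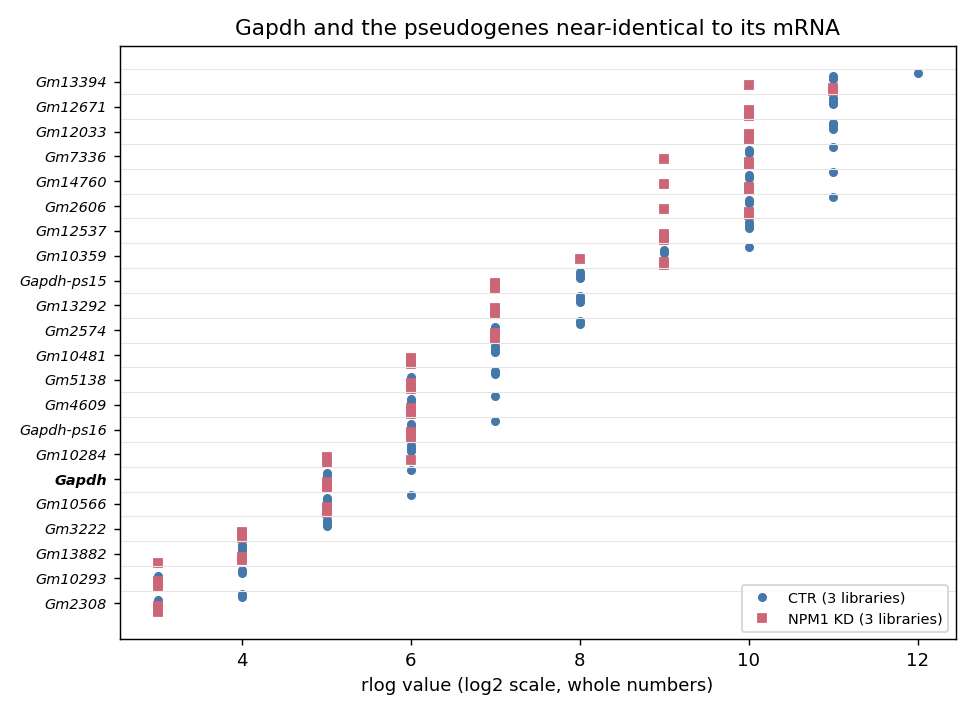
The horizontal axis gives the rlog value (log2 scale) of *Gapdh* and of the 21 pseudogenes similar to it that entered the fit, in the 3 CTR libraries (circles) and the 3 NPM1 KD libraries (squares), with entries ordered by mean normalized count. *Gapdh* sits at 5 to 6, while *Gm13394* and *Gm12671* sit at 10 to 12 with their NPM1 KD values at 10 and 11.

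Of 14 other genes often used as references, all tested, limma called 0, beside 0.417% of all genes tested called lower and 0.0695% called higher. At an unadjusted p below 0.05 (limma), 1 was higher, beside 6.07% of all genes tested, and 0 were lower, beside 8.07%. The difference was 0 in 9 of the 14, −0.33 in 4 and 0.67 in *Polr2a*, beside −0.33 for *Gapdh* and −0.79 for its sum with the pseudogenes. *Hprt*, *Tbp*, *Ywhaz*, *Ppia* and *Rpl13a* each had one value in all 6 libraries. *Actb* and *Rplp0* were at 11 in every library but NPM1 KD 1, where both were at 10.

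Shared sequence with listed genes also touched 2 further members. *Eno1b*, annotated as protein coding, is 99.5% identical to *Eno1* over 1736 bases and had the same value as *Eno1* in each library, and the *Eno1* entry holds 49.1% of their summed mean normalized count. The sum of both differed by −0.67, as each did alone. *Gpi-ps*, a pseudogene 98.7% identical to *Gpi1* over 1046 bases, had values of 8, 7 and 7 in CTR and of 6, 7 and 7 in NPM1 KD. *Gpi1* holds 53.9% of the summed count, and the log2 sum of both differed by −0.86, beside −1 for *Gpi1* alone. In GENCODE M21, *Tpi1*, *Pgk1*, *Pgam1*, *Pkm*, *Ldha*, *Ldhb* and *Pdhb* also have similar transcripts of other genes, which are not listed. Among these, *Pgk1-rs7* is 100% identical to *Pgk1* over 1255 bases, and *Gm5514* is 98% identical to *Ldhb* over 1002 bases. Whether reads of these members were placed on or lost to such genes was not tested.

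Lactate dehydrogenase reduces pyruvate to lactate. *Ldha* (ENSMUSG00000063229), its muscle-type subunit, was at 10 in each CTR library and at 8, 9 and 9 in NPM1 KD. The groups did not overlap, and the means of 10 ± 0 and 8.67 ± 0.58 (SD, n = 3) differed by −1.33 (SE 0.33). *Ldhb*, the heart-type subunit, was listed at 0 in all 6 libraries. Of the proton-coupled transporters that carry lactate across the plasma membrane, *Slc16a3* (MCT4), typical of lactate-exporting cells, had values of 8, 8 and 7 in CTR and of 7, 7 and 7 in NPM1 KD, a difference of −0.67. *Slc16a1* (MCT1) was at 4 in all 6 libraries. On the lactate branch only *Ldha* was thus separated between the conditions.

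The genes at the entry of pyruvate into mitochondria did not show lower means among those tested. *Pdha1* and *Dlat*, subunits of the pyruvate dehydrogenase complex, had one value each in all 6 libraries, 4 and 5. *Pdhb*, the beta subunit of its first enzyme, was at 5, 6 and 6 in CTR and at 6 in each NPM1 KD library, a difference of 0.33 that came from CTR 1. *Pdk1*, the kinase that inhibits the complex, was below the minimum for the fit, with a value of 1 for NPM1 KD 3 and of 2 for every other library.

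Of the 6 pentose phosphate genes, 4 were tested, with 2 lower and 2 higher means, a range of −0.67 to 0.67 and 0 called (limma). In the oxidative branch, *Pgls*, 6-phosphogluconolactonase, was at 6, 5 and 6 in CTR and at 5 in each NPM1 KD library, whereas *Pgd*, 6-phosphogluconate dehydrogenase, was at 5 in each CTR library and at 5, 6 and 6 in NPM1 KD. These adjacent steps differed by −0.67 and 0.67, each with an overlap. *G6pdx*, the entry enzyme, was too low for the fit, with values of 3, 3 and 4 in CTR and of 3 in each NPM1 KD library. In the non-oxidative branch, *Tkt*, transketolase, was at 6, 5 and 6 in CTR and at 5 in each NPM1 KD library, and *Taldo1*, transaldolase, was at 6, 7 and 7 in CTR and at 7 in each NPM1 KD library, while *Rpia*, ribose 5-phosphate isomerase, stood at 2 throughout. The 2 tested genes of each branch therefore did not share a direction.

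The glycerol 3-phosphate shuttle, which passes electrons of cytosolic NADH to mitochondria, is represented by 2 genes. *Gpd2*, the mitochondrial dehydrogenase, was at 4 in all 6 libraries. *Gpd1l*, a cytosolic glycerol 3-phosphate dehydrogenase, was at 2 in each CTR library and at 3 in each NPM1 KD library. It was the single member with all NPM1 KD values above all CTR values. Its mean rlog of 2.5 was below the minimum for the fit, and its mean normalized count was 6.32.

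**Figure D4:**
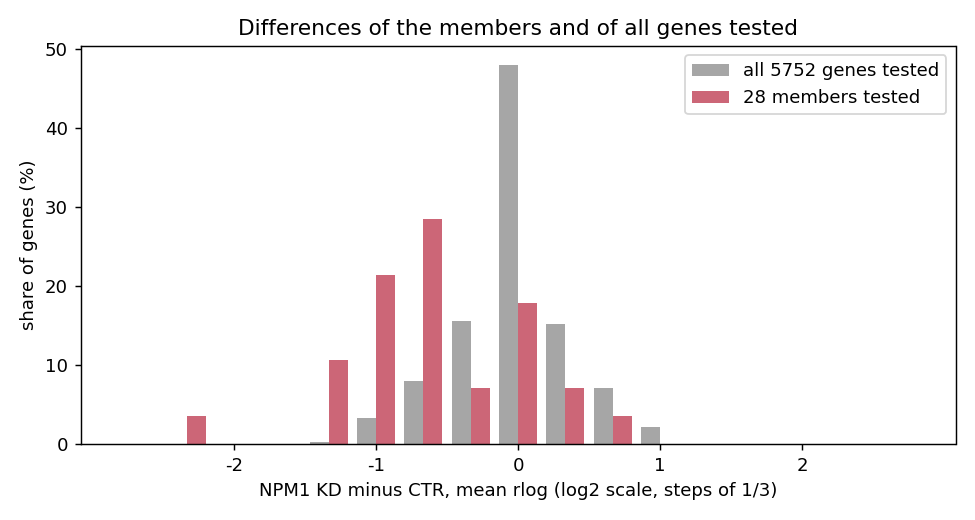
The horizontal axis gives the difference of mean rlog between NPM1 KD and CTR on the log2 scale, in steps of 0.33, and the vertical axis the percentage of genes at each step, for all 5752 genes tested and for the 28 members among them. A difference of 0 was held by 48.0% of all genes and by 17.9% of the members, and −1 by 3.36% and 21.4%.

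Isoforms of one step were compared within each library, as the rlog of one gene minus that of its partner. These gaps are not per transcript length, so only their change between conditions is read. The gap of *Aldoc* to *Aldoa* was −3, −4 and −3 in CTR against −4, −5 and −5 in NPM1 KD. The means of −3.33 ± 0.58 and −4.67 ± 0.58 (SD, n = 3) differed by −1.33, with an overlap at −4, and this was the largest change of a gap among the 7 pairs in which both isoforms were tested. The gap of *Pfkp* to *Pfkl* was 0, 1 and 0 in CTR and 1 in each NPM1 KD library, a change of 0.67, and that of *Slc16a3* to *Slc16a1* was 4, 4 and 3 against 3 in each, a change of −0.67. The gaps of *Slc2a1* to *Slc2a3* and of *Hk2* to *Hk1* changed by 0.33 each, that of *Eno2* to *Eno1* by −0.33, and that of *Pfkp* to *Pfkm* by 0. The neuronal isoforms *Slc2a3*, *Aldoc* and *Eno2* had differences of −1.33, −2.33 and −1, beside −1, −1 and −0.67 for their partners *Slc2a1*, *Aldoa* and *Eno1*, which is a wider margin than 1 step of the rounding for *Aldoc* alone.

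**Figure D5:**
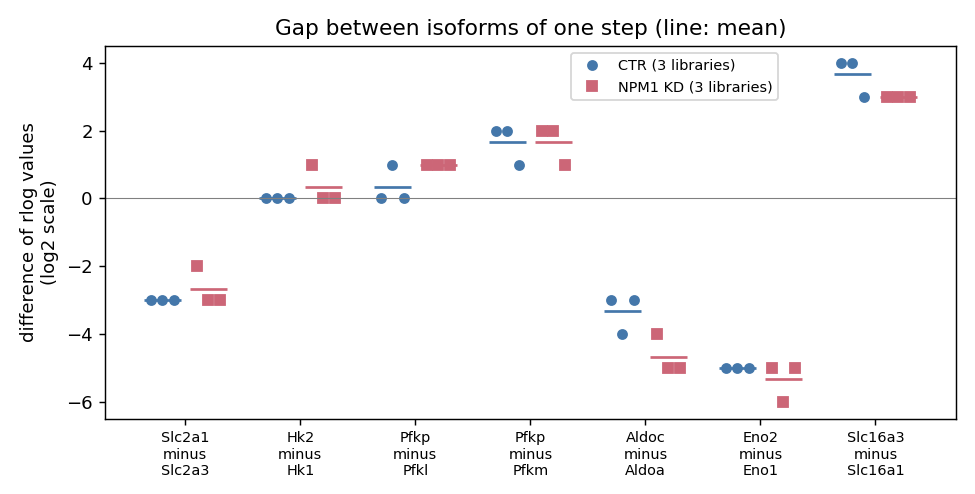
For each of 7 isoform pairs, the vertical axis gives the rlog of the first gene minus that of the second in the same library (log2 scale), with circles for the 3 CTR and squares for the 3 NPM1 KD libraries and a line at each mean. The mean gap of *Aldoc* to *Aldoa* moves from −3.33 to −4.67, and each of the other pairs moves by 0.67 or less.

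Single libraries weighed on several members. CTR 1 was above both other CTR libraries in 9 of the 28 tested members, as in 5.67% of all genes tested, and NPM1 KD 1 was below both other NPM1 KD libraries in 7, as in 7.41% of all genes tested. The former were *Slc2a1*, *Slc2a3*, *Hk1*, *Hk2*, *Pfkl*, *Aldoc*, *Gapdh*, *Eno1* and *Eno2*, and the latter were *Hk1*, *Gpi1*, *Aldoa*, *Tpi1*, *Eno1*, *Ldha* and *Pgd*. NPM1 KD 1 was also the library with the lowest relative depth. When each library was left out in turn, the difference of *Aldoc* stayed between −2.5 and −2, that of *Slc2a3*, *Pfkl* and *Ldha* between −1.5 and −1, and that of *Pgk1* at −1. *Aldoc* was called in each of these 6 fits, and *Slc2a3*, *Pfkl* and *Ldha* in none of them.

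The remaining genes of these pathways gave few measurable values. Of 56 such genes, drawn up from textbook knowledge, 55 were listed, 18 were at 0 in every library and 11 were tested. Limma called 0 of the 11 in either direction, beside 0.417% of all genes tested called lower and 0.0695% called higher. At an unadjusted p below 0.05 (limma), 1 was lower, beside 8.07% of all genes tested, and 2 were higher, beside 6.07%. The differences of the 11 ran from −0.67 to 0.67 with a median of 0.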

How the data were processed

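RNA-seq of N2a cells was analysed from 2 deposited tables, with 3 CTR and 3 NPM1 KD libraries grouped by the sample labels. The authors deposited rlog values per gene and library, a score on the log2 scale whose values of 1 or more in size are rounded to whole numbers, and a mean normalized count per gene over all libraries. The deposited table also holds the authors' log2 fold change, standard error, statistic, p-value and adjusted p-value, which were not used. The submitters' processing notes name minimap2, featureCounts, DESeq2 and the build GRCm39, without versions. The basecaller and annotation are not given in the sources used here. Whether counting used strand is not given either.

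From 26913 entries, 257 that repeat a gene ID were left out. Genes with a mean rlog of at least log2 of 10 were fitted with limma 3.58.1 in R 4.3.3, two-sided, with an intensity trend and Benjamini-Hochberg adjustment over all genes tested (threshold 0.05). No variance was allowed under 0.0833, which is what rounding to integers contributes. The variances that limma then used followed the trend with mean level, and a gene's own spread did not change them. The script was run on simulated data with planted differences larger than those of most members. Nothing about the calls in these libraries is read from that run. Genes are called separated where all values of one condition lie on one side of the other. Relative depth was worked out from the authors' mean normalized counts of genes with few reads, of which 388 could be assigned to a library. Depth limits counting error only. The normalized counts add up to 841220, with a median of 28.4 over the genes tested.

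Similar transcripts were searched with blastn 2.17.0 in GENCODE M21, and stretches before the start were taken from RefSeq (GRCm38.p6). These belong to an older build than that of the tables and were joined by symbol. A planned comparison of the proteins of isoforms was not analysed here. The genes, gene lists and tests were chosen with earlier results of these data known. Values per library are given for members whose groups do not overlap or whose difference is at least 1 in size and for *Gapdh*, and the text extends this to nearly all others. Alternatives were no limit on the variance, no trend, other minimum levels, libraries shifted to one mean, a replicate block and leaving out each library.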

Additional observations from a re-analysis of the deposited data

How the results depend on the processing

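Among the 6 fits that each left out 1 library, 5 to 9 genes were called lower and 0 to 2 higher, against 24 and 4 with all libraries, and in each of them *Aldoc* was the 1 member called lower, against 4. Members separated lower numbered 5 to 10 in these fits, beside 4.29% to 5.30% of all genes tested, and members separated higher 0 to 1, beside 2.96% to 3.77%. With 2 libraries in a condition, separation is easier for every gene than with 3. The median difference of the members was −0.75 to −0.5. Without CTR 1 it was −0.5, and without CTR 3 there were 10 members separated lower, beside 5.30% of all genes tested. When a library was left out or the libraries were shifted to one mean, the differences of the 28 tested members moved by less than the spread between replicates. That spread was taken as at least 0.289, the SD that rounding adds, because 6 members had no spread in either condition. This outcome was fixed in advance, so nothing is read from it. With 3 libraries, leaving out 1 always moves a mean by less than this spread, and the shifts to one mean were smaller than 0.289.

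The calls depended on how the rounding was treated. Without the limit on the variance, 178 genes were lower and 123 higher, and 2 members were lower, *Aldoc* and *Pgk1*. Without the intensity trend, 218 genes were lower and 132 higher, and 10 members were lower. With no minimum level, which brought 14776 genes and 34 members into the fit, 10 genes were lower and 1 higher, 2 members were lower, *Aldoc* and *Ldha*, and 1 was separated higher, *Gpd1l*. With a mean of at least log2 of 50, which left 1879 genes and 14 members and removed *Aldoc*, 76 genes were lower and 53 higher, and 7 members were lower. Shifting the libraries to one mean separated 8 members higher, against 0, and 61.4% of all genes tested, against 2.19%, because shifts smaller than the rounding part values that are tied, and left the calls at 24, 4 and 4. Members called higher numbered 0 in each of these settings. For these counts the cause was not tested further.

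With the replicate number as a replicate block, 7 genes were lower, 1 was higher and 1 member was lower, *Aldoc*. The labels do not say that a number marks a shared culture or day, so the numbers were not taken to pair the samples. The deviations of libraries with the same number correlated at 0.00887, 0.00128 and 0.0298, beside −0.0364 to 0.0245 for the other pairs. With whole-number values, these correlations cannot exclude a pairing. For its ChIP-seq, the paper states that each replicate came from another passage and was transfected separately.

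The whole-number values limit what can be seen: 40.2% of the genes tested, and 8 of the 35 members, had one value in all 6 libraries. With 3 libraries per condition and lower depth in each knockdown library, differences of 1 step cannot be told from rounding.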
